A study of Rattus norvegicus with 6 samples.

Results

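The antioxidant, thioredoxin and glutathione genes of rat islets were the 60 rows, of 17055 gene rows counted, whose symbol named a glutathione peroxidase (Gpx1 to Gpx8), a peroxiredoxin (Prdx1 to Prdx6), a gene beginning with Txn, a superoxide dismutase (Sod1 to Sod3) or a glutathione transferase of the alpha, mu, pi, theta, kappa or omega class, together with Cat, Gclc, Gclm, Gsr, Nqo1, Srxn1 and Nfe2l2. The rule itself uses names and no measured values, but it was drawn up with earlier results of these data known. By role the 60 rows held 3 superoxide dismutases, 1 catalase, 8 glutathione peroxidases, 7 peroxiredoxin-cycle genes, 7 genes of the thioredoxin system, 9 other thioredoxin-domain proteins, 3 genes of glutathione synthesis and recycling, 20 glutathione transferases, and the pair Nfe2l2 and Nqo1.

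The libraries held polyadenylated RNA of intact pancreatic islets, the clusters of hormone-secreting cells, taken from control Sprague-Dawley rats with no treatment or mutation named. P10 stands for rats aged 10 days (labelled 1.5 weeks, sex not given), and the adults were males aged 3 months (12 weeks). Each age had 3 libraries, called biological replicates by the submitters. How many animals gave a library is not stated, and adult age cannot be told apart from male sex. The only comparison of the series, adult against P10, addresses the postnatal maturation of islets. Gene counts per library ran from 3307415 to 6477825, and the 60 genes held between 9833 and 24785 of them. The insulin genes, the defining product of beta cells, took 28.3% to 33.6% of gene counts at P10 and 46.6% to 52.3% in adults. Adult replicate 3 stood apart from the other adults in markers of acinar cells, the enzyme-secreting cells of the pancreas. Without it 7 members were higher and 8 lower, against 9 and 10 with it. Leaving out P10 replicate 4 instead gave the same 7 and 8, and each library left out in turn gave 7 to 10 higher and 7 to 10 lower.

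Superoxide dismutases turn superoxide, a by-product of respiration, into hydrogen peroxide. Catalase, the glutathione peroxidases and the peroxiredoxins then remove the peroxide, the peroxidases with electrons from glutathione and most peroxiredoxins with electrons from thioredoxin, and NADPH recharges both carriers through glutathione reductase and thioredoxin reductase. The transcription factor NRF2, made by Nfe2l2 and held in check by KEAP1, drives many of these genes. Beta cells are known for low levels of catalase and glutathione peroxidase compared with liver and other tissues.

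Of the 60 genes, 47 could be tested, 8 had no count in any library and 5 had too few counts. Adult islets had higher mRNA of 9 members and lower mRNA of 10, and 28 did not pass, by edgeR's quasi-likelihood test with a threshold of 0.05 on the false discovery rate (FDR), adjusted over all 10124 tested genes. Over all tested genes 12.5% were higher and 13.8% lower, 26.3% in either direction, against 19.1% and 21.3% of the tested members. The shares over all tested genes are also the background for the count of each role below. The groups did not overlap in any of the 19 called members. They also did not overlap in 12 of the other 28, so that 31 of 47 were separated, beside 42.3% of all tested genes. The median log2 fold change was -0.24 over the tested members and -0.03 over all tested genes. Gpx6, Gsta2, Gstm3, Gstm5, Gstm6l, Gstt4, Txndc2 and Txndc8 had no count, which allows a level of up to 0.407 to 1.10 CPM by library (3 counts). Gpx5, Gsta5, Gstm6, Gsto2 and Gstt3 had counts but failed the filter. Gpx8 and Gstm2 passed the filter on low counts only through P10, the group in which they were high. In whole islets, fewer cells of a type and less RNA per cell cannot be told apart.

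Directions were read relative to the bulk of the genes. Scaling by library totals alone, without factors for composition, gave 5 members higher and 25 lower. Rises then made up 16.7% of the calls among members in place of 47.4%. Over all genes rises made up 8.67% of the calls in place of 47.6%, and the median was -0.52 on the log2 scale. The summed level showed the same dependence. The 60 genes took 0.359% to 0.425% of gene counts at P10 and 0.282% to 0.333% in adults, but summed to 3100 to 3381 at P10 and 3604 to 3844 in adults in CPM, which are counts divided by the library's total after composition factors. Without Sod1 and Sod2, a pair chosen after their values were seen, the sums were 2759 to 3024 CPM at P10 and 2676 to 2803 CPM in adults, and overlapped.

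**Figure D1:**
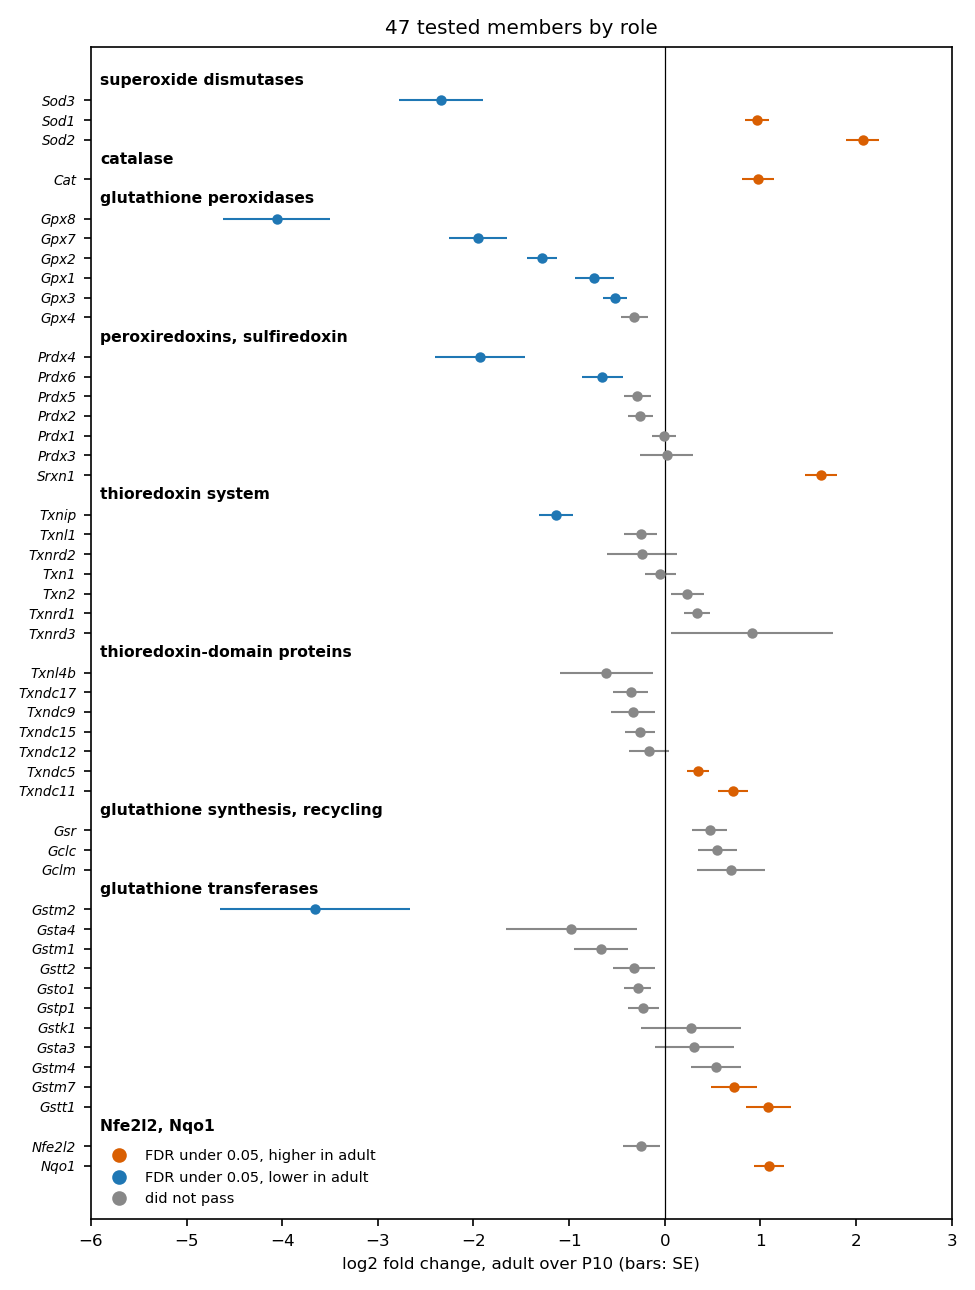
Log2 fold change of adult over P10 for the 47 tested members, grouped by role; points are fitted values, bars their standard error, orange and blue points passed the threshold and grey points did not. Superoxide dismutases spread from -2.34 (Sod3) to 2.07 (Sod2), whereas all 6 tested glutathione peroxidases lie to the left of zero.

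Promoter windows of RefSeq (GRCr8 build, from 250 bases before to 50 after the transcription start) were found by symbol for 47 of the 60 members. They were searched on both strands for TGACNNNGC, the core of the antioxidant response element that NRF2 and its small Maf partners bind, and no other motif was searched. It occurred in 15 of the 47 windows (31.9%) and in 4038 of all 33469 windows of the same length (12.1%). Among matched members that were higher in adults 4 of 8 held it, and among those lower 2 of 6. It was held by 7 of 23 that did not pass and by 2 of 10 that were not tested. The stretches before the start that hold it in called members are shown to let the sites be compared, with the motif in capitals (GCNNNGTCA where it lies on the other strand). The first 4 belong to genes that were higher in adults and the last to Gpx2, which was lower. The stretches lie at chr1:50050169-50050233 (Sod2, minus strand), chr2:198260320-198260363 (Gstm7, minus), chr17:26495415-26495466 (Txndc5, plus), chr10:5022295-5022363 (Txndc11, plus) and chr6:101230034-101230076 (Gpx2, minus).
Sod2: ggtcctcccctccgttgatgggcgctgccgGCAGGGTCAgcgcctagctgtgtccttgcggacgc
Gstm7: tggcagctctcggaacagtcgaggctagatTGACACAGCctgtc
Txndc5: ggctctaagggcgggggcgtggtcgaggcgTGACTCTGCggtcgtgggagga
Txndc11: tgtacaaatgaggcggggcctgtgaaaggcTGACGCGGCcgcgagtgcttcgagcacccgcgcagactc
Gpx2: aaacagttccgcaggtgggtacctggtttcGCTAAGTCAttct
The sites of Gpx2, Gstm7, Txndc5 and Sod2 begin 13, 14, 22 and 35 bases before the start, and that of Txndc11 139 bases before it. In Prdx4, the other called member with a match, the site lies after the start. The windows of Nqo1, Srxn1, Sod1 and Cat do not hold these letters, and sequence outside the windows was not searched. A match is a description of the sequence and no test of binding.

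The 3 superoxide dismutases did not all change in the same direction. Sod2, the mitochondrial manganese enzyme, stood at 147, 137 and 119 CPM in P10 replicates 1, 3 and 4 and at 696, 411 and 585 CPM in adult replicates 1, 2 and 3. Every adult library lay far above every P10 library, and adult replicate 2 was the lowest of the adults. The gene rose 4.20-fold (log2 fold change 2.07 ± 0.17 SE, edgeR FDR = 3.35e-07), the largest rise among the 47 tested members. Sod1, the cytosolic copper-zinc enzyme, went from 190, 221 and 222 CPM to 364, 414 and 456 CPM and rose 1.95-fold (FDR = 4.38e-05). Sod3, the secreted copper-zinc enzyme of the extracellular matrix, fell instead. Its levels were 22.8, 16.5 and 17.0 CPM at P10 and 1.38, 6.60 and 3.30 CPM in adults, a 5.06-fold fall (log2 fold change -2.34 ± 0.44 SE, FDR = 0.00107). The adult libraries held 40 Sod3 counts in all, and adult replicate 1 was the lowest of them.

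Cat, catalase, which breaks down hydrogen peroxide in peroxisomes, rose 1.96-fold (FDR = 0.000545). It was at 38.0, 36.7 and 41.5 CPM at P10 and 67.1, 71.1 and 88.3 CPM in adults. The groups were well apart, with adult replicate 3 the highest. Its rise stayed just past the threshold with library totals alone (log2 fold change 0.48, FDR = 0.0496).

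**Figure D2:**
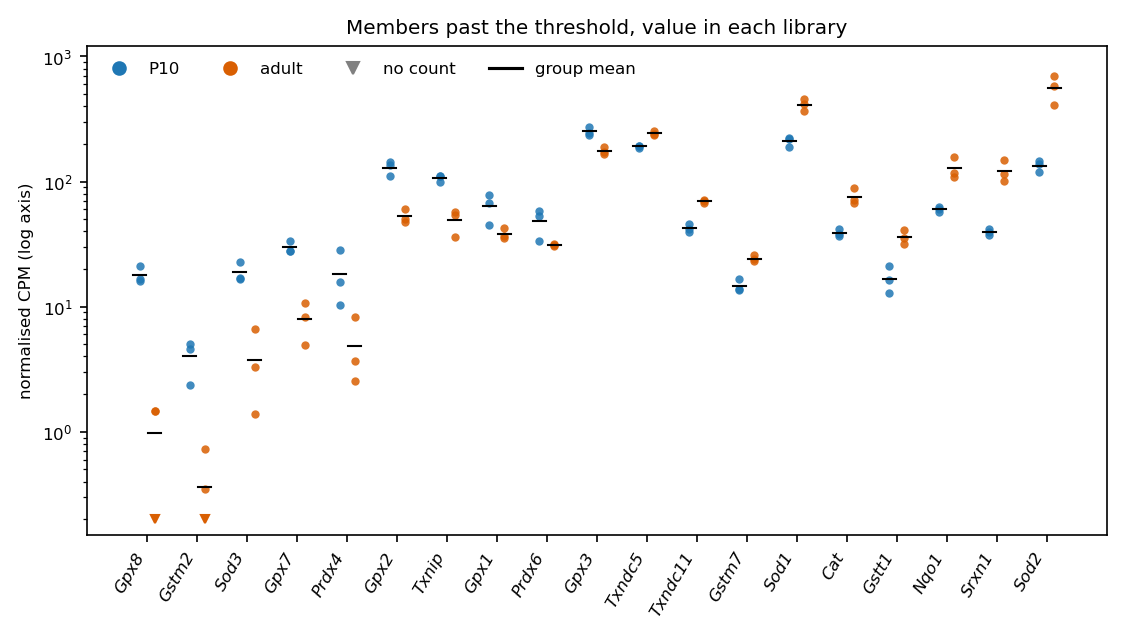
Normalised CPM (log axis) of the 19 members past the threshold in each of the 3 P10 (blue) and 3 adult (orange) libraries; black lines are group means, and triangles at the bottom mark libraries with no count. The groups do not overlap in any of the 19 genes, which were selected by the test, and in 42.3% of all tested genes. Gpx8 and Gstm2 each have an adult library with no count.

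The glutathione peroxidases, which reduce hydrogen peroxide or lipid peroxides with glutathione, took the opposite direction to Sod1, Sod2 and Cat. Of 8 members 5 fell, none rose, 1 did not pass, and Gpx5 and Gpx6 were not tested. Over all tested genes 13.8% were lower and 12.5% higher, and Gpx8, among the 5, passed the filter only through P10. Summed over the family they stood at 692 to 789 CPM at P10 and 429 to 512 CPM in adults. The largest fall was that of Gpx8, a peroxidase of the endoplasmic reticulum (ER) membrane, with 16.5, 16.0 and 21.1 CPM at P10 and 0, 1.47 and 1.47 CPM in adults. That is 317 counts against 12, a 16.6-fold fall (log2 fold change -4.06 ± 0.56 SE, FDR = 6.88e-05), and adult replicate 1 had no count. Gpx7, its relative in the ER lumen, which passes oxidising equivalents to protein disulphide isomerases, fell 3.88-fold, from 28.1, 33.6 and 27.9 CPM to 8.30, 10.6 and 4.96 CPM (FDR = 0.000192).

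Gpx2, a cytosolic enzyme best known from the gut lining, fell 2.43-fold. It had 143, 135 and 110 CPM at P10 against 47.7, 50.6 and 60.6 CPM in adults (FDR = 2.28e-05), and its start region with the response element core is printed above. Gpx3, the secreted plasma peroxidase, fell 1.43-fold, from 246, 274 and 236 CPM to 167, 189 and 172 CPM (FDR = 0.00572). Gpx1, the general cytosolic peroxidase, fell 1.66-fold, from 44.8, 78.3 and 68.0 CPM to 42.2, 35.6 and 36.9 CPM (FDR = 0.0156). P10 replicate 1 lay just above the highest adult library, and Gpx1 no longer passed when P10 replicate 3 (log2 fold change -0.54, FDR = 0.102), P10 replicate 4 (FDR = 0.0613), adult replicate 2 (FDR = 0.0675) or adult replicate 3 (FDR = 0.0533) was left out. Gpx4, which protects membranes from lipid peroxides, had 228, 251 and 229 CPM at P10 and 193, 224 and 153 CPM in adults and did not pass (log2 fold change -0.32 ± 0.14 SE, FDR = 0.114). With library totals alone Gpx4 was lower (log2 fold change -0.82, FDR = 0.000455). The groups did not overlap for Gpx4, but adult replicate 2 came within a few CPM of the P10 libraries. Its share of all reads of the family, which needs no scaling, was 32.3%, 31.9% and 33.1% at P10 and 42.1%, 43.8% and 35.6% in adults. Such a share also rises when the other genes of the family fall.

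Genes of fibroblasts fell in the same libraries as Gpx7, Gpx8 and Sod3. Of 10 fibroblast markers 9 were tested, 7 were lower and none higher, and their summed level went from between 3128 and 3950 CPM at P10 to between 669 and 934 CPM in adults, with Col1a2 at 0 in every library. Duct markers were lower in 5 of 6 tested, with sums of 1653 to 1800 CPM at P10 and 389 to 562 CPM in adults, and dividing-cell markers in 6 of 9, with sums of 109 to 137 CPM and 36.3 to 39.2 CPM. Endothelial markers were lower in 2 of 9 (149 to 229 CPM against 103 to 147 CPM). Beta-cell markers were higher in 7 of 9 tested (228120 to 297378 CPM against 539282 to 672509 CPM), and alpha-cell markers higher in 1 and lower in 1 of 6 (25009 to 27964 CPM against 13766 to 18522 CPM). Over all tested genes 12.5% were higher and 13.8% lower. The markers Lum, Muc1, Cldn5 and Birc5, counted as lower here, passed the filter on low counts only through P10, where they were high. Cldn5 had 423 counts at P10 and 1 in adults. The part of these cell types in the falls and rises of the members was not tested.

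Among the peroxiredoxins, thiol enzymes that remove peroxides, 2 of 6 fell and 4 did not pass. Prdx4, the peroxiredoxin of the ER lumen, had 10.3, 28.5 and 15.8 CPM at P10 and 8.30, 2.57 and 3.67 CPM in adults, a 3.81-fold fall (log2 fold change -1.93 ± 0.47 SE, FDR = 0.0069). Libraries of 1 age differed widely here, by 2.77-fold at P10 and 3.23-fold in adults, and the call was lost without P10 replicate 3 (log2 fold change -1.42, FDR = 0.0743). Prdx6, which repairs oxidised phospholipids with glutathione, fell 1.57-fold, from 58.6, 52.7 and 33.5 CPM to 31.5, 30.4 and 30.8 CPM (FDR = 0.0347). P10 replicate 4 stood close to the adults, and Prdx6 no longer passed after leaving out any of the other 5 libraries (FDR from 0.083 to 0.122) and in DESeq2 (FDR = 0.0576).

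Prdx1 and Prdx2, the abundant cytosolic peroxiredoxins, did not pass. Prdx1 had nearly the same level at both ages, with 146, 167 and 144 CPM at P10 and 142, 167 and 147 CPM in adults (log2 fold change -0.01, 95% interval -0.28 to 0.27, FDR = 0.974). Prdx2, which is also abundant in red blood cells, had 253, 212 and 199 CPM at P10 and 182, 184 and 191 CPM in adults (log2 fold change -0.26 ± 0.13 SE, FDR = 0.158). Red blood cell markers summed to 219 to 288 CPM at P10 and 132 to 317 CPM in adults, and overlapped. The mitochondrial Prdx3 (log2 fold change 0.02) and Prdx5, also found in peroxisomes (log2 fold change -0.29), did not pass either. Prdx1 and Prdx2 were both lower with library totals alone (log2 fold changes -0.51 and -0.75, FDR = 0.0122 and 0.000631).

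Srxn1, sulfiredoxin, which restores peroxiredoxins that have been over-oxidised, rose. It was at 39.6, 41.5 and 37.4 CPM at P10 and 116, 102 and 149 CPM in adults, a 3.10-fold rise (log2 fold change 1.63 ± 0.17 SE, FDR = 3.78e-06). The P10 libraries lay within a few CPM of each other, and adult replicate 3 was the highest. Per Prdx1 read there were 0.271, 0.248 and 0.259 Srxn1 reads at P10 and 0.811, 0.611 and 1.02 in adults, a ratio that does not depend on the scaling.

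In the thioredoxin system only the inhibitor passed of the 7 genes, all tested. Txnip, which binds and inhibits thioredoxin and is induced by glucose, fell 2.20-fold, from 111, 111 and 99.0 CPM to 57.1, 54.2 and 36.0 CPM (log2 fold change -1.14 ± 0.18 SE, FDR = 0.000209). The groups were clearly apart, with adult replicate 3 the lowest. Txn1, the cytosolic thioredoxin, had 99.1, 90.0 and 80.1 CPM at P10 and 66.7, 97.1 and 96.9 CPM in adults and did not pass (log2 fold change -0.04, 95% interval -0.40 to 0.31, FDR = 0.875), nor did its mitochondrial counterpart Txn2 (0.24, FDR = 0.342). With library totals alone Txn1 was lower (log2 fold change -0.54, FDR = 0.0191). The number of Txnip reads per Txn1 read was 1.12, 1.23 and 1.24 at P10 and 0.855, 0.558 and 0.371 in adults.

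Txnrd1, the cytosolic thioredoxin reductase, had 99.3, 118 and 110 CPM at P10 and 142, 124 and 147 CPM in adults. The groups did not overlap, but the difference did not pass (log2 fold change 0.34 ± 0.13 SE, FDR = 0.0772), and its sign turned with library totals alone (-0.16). The mitochondrial Txnrd2 and the testis-enriched Txnrd3 had log2 fold changes of -0.24 ± 0.37 (SE) and 0.91 ± 0.85 (SE) with overlapping groups. Txnl1, a thioredoxin-like protein of the proteasome, had -0.25 ± 0.17 (SE).

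Among the 9 other thioredoxin-domain proteins 2 rose, 5 did not pass, and Txndc2 and Txndc8, both known from the testis, had no count. Txndc11, an ER protein, rose 1.64-fold, from 45.6, 41.9 and 39.8 CPM to 71.2, 67.8 and 70.3 CPM (FDR = 0.00327), with close replicates at both ages. It did not pass with library totals alone (log2 fold change 0.22, FDR = 0.334). Txndc5, a protein disulphide isomerase of the ER, was at 194, 185 and 194 CPM at P10 and 253, 242 and 234 CPM in adults (1.27-fold, FDR = 0.0376). That small difference turned sign with library totals alone (log2 fold change -0.14, FDR = 0.426), and Txndc5 no longer passed after leaving out P10 replicate 3, P10 replicate 4 or any adult library (FDR from 0.0509 to 0.123). The 5 that did not pass, Txndc9, Txndc12, Txndc15, Txndc17 and Txnl4b, had log2 fold changes between -0.61 and -0.17.

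None of the 3 genes of glutathione synthesis and recycling passed. The groups did not overlap in any of them, as in 42.3% of all tested genes. Gclc, the catalytic subunit of glutamate-cysteine ligase, which sets the rate of glutathione synthesis, had 31.9, 26.4 and 25.0 CPM at P10 and 48.1, 32.6 and 41.7 CPM in adults (log2 fold change 0.55 ± 0.21 SE, FDR = 0.0613). It passed without P10 replicate 1 (FDR = 0.0322) or without adult replicate 2 (FDR = 0.0433). Its modifier subunit Gclm had 6.24, 8.17 and 10.2 CPM at P10 and 11.8, 12.1 and 15.4 CPM in adults (log2 fold change 0.69 ± 0.36 SE, FDR = 0.169). Gsr, glutathione reductase, had 32.8, 46.8 and 41.0 CPM at P10 and 54.6, 54.6 and 57.5 CPM in adults (log2 fold change 0.47 ± 0.18 SE, FDR = 0.0662) and passed without P10 replicate 3 (FDR = 0.0474). With library totals alone the log2 fold changes of Gclc, Gclm and Gsr were 0.07, 0.20 and -0.03.

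Glutathione transferases couple glutathione to electrophiles such as products of lipid peroxidation. Of 20 rows 11 were tested, 2 rose, 1 fell and 8 did not pass. Gstt1, of the theta class, rose 2.12-fold, from 21.0, 16.3 and 12.9 CPM to 35.6, 40.7 and 31.8 CPM (log2 fold change 1.08 ± 0.24 SE, FDR = 0.00313), but did not pass with library totals alone (FDR = 0.0657). Gstm7, of the mu class, went from 13.6, 16.5 and 13.8 CPM to 23.2, 25.7 and 23.9 CPM (1.65-fold, FDR = 0.0387). The Gstm7 groups were separate, yet the call was kept in only 3 of 13 alternatives and was lost without any of the 6 libraries (FDR from 0.0509 to 0.106).

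Gstm2, another mu-class gene, fell, with 5.02, 2.38 and 4.61 CPM at P10 and 0.346, 0.733 and 0 CPM in adults (FDR = 0.0128). Only 3 counts lay in the adult libraries against 72 at P10, 14.6-fold after normalisation (95% counting interval 4.79 to 72.3). Leaving out P10 replicate 4, adult replicate 1 or adult replicate 3 ended the call (FDR from 0.0605 to 0.0714), and the log2 fold change of -3.66 became -2.83 without adult replicate 3 and -4.71 without adult replicate 2. Reads shared by near-identical mu-class genes do not align uniquely, so the division of counts among Gstm1, Gstm2, Gstm4 and Gstm7 is uncertain. The abundant pi-class Gstp1 (log2 fold change -0.22 ± 0.16 SE) and omega-class Gsto1 (-0.28 ± 0.14 SE) did not pass. The other 6 that did not pass, Gsta3, Gsta4, Gstk1, Gstm1, Gstm4 and Gstt2, had log2 fold changes between -0.98 (Gsta4) and 0.54 (Gstm4).

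Nfe2l2, the gene of NRF2, had overlapping levels of 61.2, 43.2 and 46.9 CPM at P10 and 36.3, 45.1 and 46.3 CPM in adults (log2 fold change -0.24, 95% interval -0.65 to 0.16, FDR = 0.379). It was lower with library totals alone (log2 fold change -0.73, FDR = 0.00672). Nqo1, a quinone reductase and a textbook NRF2 target, rose 2.13-fold, from 62.5, 60.3 and 57.0 CPM to 117, 108 and 157 CPM (log2 fold change 1.09 ± 0.16 SE, FDR = 0.000114). Per Nfe2l2 read there were 1.02, 1.40 and 1.22 Nqo1 reads at P10 and 3.21, 2.41 and 3.39 in adults.

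**Figure D3:**
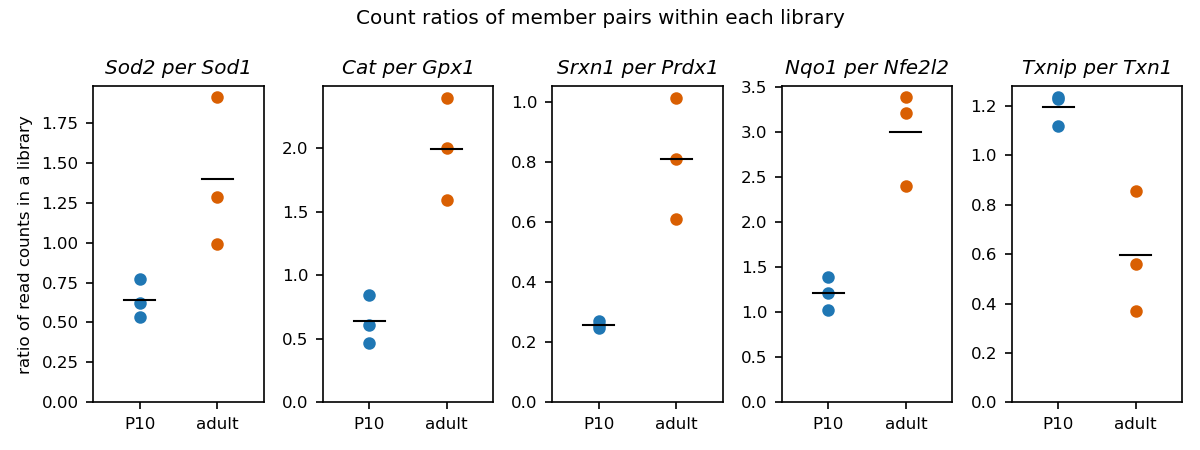
Reads of one member per read of another within each library, for 5 pairs chosen after their values were seen; points are libraries, black lines group means, and each axis starts at 0. P10 and adult libraries do not overlap in any of the 5 ratios, which do not depend on how libraries are scaled but do depend on the lengths of both transcripts.

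Further ratios within a library needed no scaling. Sod2 reads per Sod1 read were 0.770, 0.622 and 0.537 at P10 and 1.91, 0.994 and 1.28 in adults. Cat reads per Gpx1 read were 0.848, 0.469 and 0.611 at P10 and 1.59, 2.00 and 2.39 in adults. The ratio of Sod2 to Gpx1, an enzyme that makes hydrogen peroxide and another that removes it, went from 3.28, 1.75 and 1.75 to 16.5, 11.6 and 15.9. A ratio shows that the 2 genes of a pair changed unequally and not which of them moved.

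**Figure D4:**
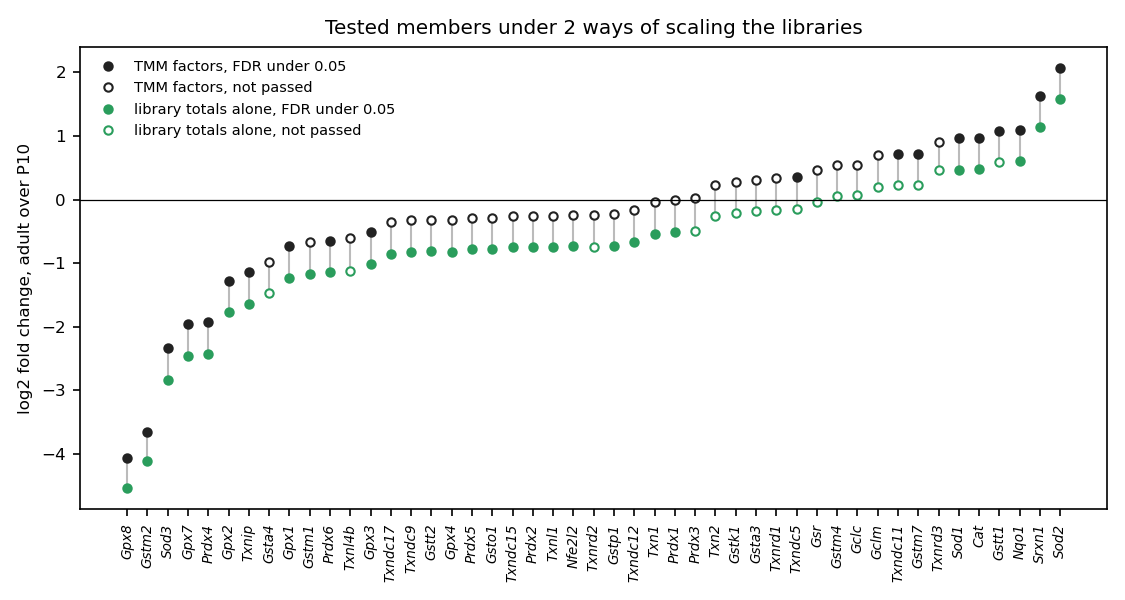
Log2 fold change of the 47 tested members with TMM factors (black) and with library totals alone (green), joined by grey lines; filled points have an FDR under 0.05. The whole set shifts down without composition factors, and Sod1, Sod2, Cat, Nqo1 and Srxn1 are the members that stay above zero with an FDR under 0.05 under both.

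Of 111 related genes of the same chemistry outside the 60, 91 were tested, 17 were higher and 10 lower in adults, with a median log2 fold change of 0.18. Over all tested genes 12.5% were higher and 13.8% lower, 26.3% in either direction, with a median of -0.03. These shares are the background for the count of each list below, and no list was tested as a set. The list of NRF2 partners and other NRF2 targets had 4 higher and none lower of 14 tested (median 0.59). Hmox1, haem oxygenase, was at 89.2, 100 and 97.8 CPM at P10 and 430, 307 and 479 CPM in adults (FDR = 1.4e-07). Sqstm1, the autophagy receptor p62, rose 2.09-fold (FDR = 2.88e-05). Keap1, the NRF2 inhibitor, had 64.0, 68.1 and 65.1 CPM at P10 and 71.2, 57.2 and 57.8 CPM in adults without passing (FDR = 0.739), and Slc7a11, the cystine transporter that feeds glutathione synthesis, had 4.61, 5.05 and 1.70 CPM at P10 and 5.19, 6.60 and 10.1 CPM in adults (FDR = 0.227).

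In the list of glutathione supply, breakdown and export 2 of 15 tested were higher and none lower (median 0.28). Slc3a2, the partner chain of several amino acid transporters, rose 1.76-fold (FDR = 0.000147) and Ggt7, a gamma-glutamyltransferase relative, 1.89-fold (FDR = 0.00388). Gss, glutathione synthetase, did not pass, with 30.1 ± 3.18 CPM (SD, n = 3) at P10 and 23.9 ± 2.86 CPM (SD, n = 3) in adults (FDR = 0.286). In the list of glutathione transferases outside the rule 1 of 8 tested was higher and 4 lower (median -0.97). That list also held Clic1, Ptges and Ptges2, which are not named as transferases, and Clic1 was among the 4 lower. Mgst2 and Mgst1, microsomal enzymes, fell 11.5-fold (FDR = 0.000446) and 4.52-fold (FDR = 0.00185), whereas Gstz1, of tyrosine breakdown, rose 1.54-fold (FDR = 0.00167). Mgst2 had 186 counts at P10 and 9 in adults. It passed the filter on low counts only through P10, the group in which it was high.

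In the list of NADPH supply 3 of 12 tested were higher and 1 lower (median 0.12). Nnt, the mitochondrial transhydrogenase that makes NADPH, rose 1.91-fold, from 48.1, 57.9 and 57.3 CPM to 105, 105 and 102 CPM (FDR = 0.000212). Pgls, a lactonase of the pentose phosphate pathway, fell 2.21-fold (FDR = 0.00698). Of the glutaredoxins and other thiol repair genes 2 of 15 were higher and 3 lower (median 0.14). Nxn, nucleoredoxin, fell 5.34-fold (FDR = 0.00173) and Sesn1, a sestrin, 2.22-fold (FDR = 0.00608), while Tmx2, a thioredoxin-like membrane protein of the ER, rose 2.05-fold (FDR = 0.00166).

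Among oxidant-producing enzymes 4 of 15 tested were higher and 2 lower (median 0.36). Ero1lb, which makes peroxide while forming disulphides in the beta-cell ER, rose 3.00-fold (FDR = 3.04e-05). Nos3, the endothelial nitric oxide synthase, fell 2.49-fold (FDR = 7.21e-05). Nos2, the inducible synthase, had 4.88, 4.75 and 2.43 CPM at P10 and 27.7, 6.96 and 121 CPM in adults (FDR = 0.000931). Its adult libraries differed by 17.3-fold, and without adult replicate 3 its log2 fold change was 2.08 against 3.67. Of the other selenoproteins and their synthesis genes 1 of 12, Selt, was higher (1.46-fold, FDR = 0.0187) and none lower (median 0.06). Selt did not pass without P10 replicate 3 (FDR = 0.0721) or adult replicate 2 (FDR = 0.105). Of the related genes named here, Slc3a2, Ggt7, Gstz1 and Selt did not pass with library totals alone (FDR from 0.0789 to 0.831).

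**Figure D5:**
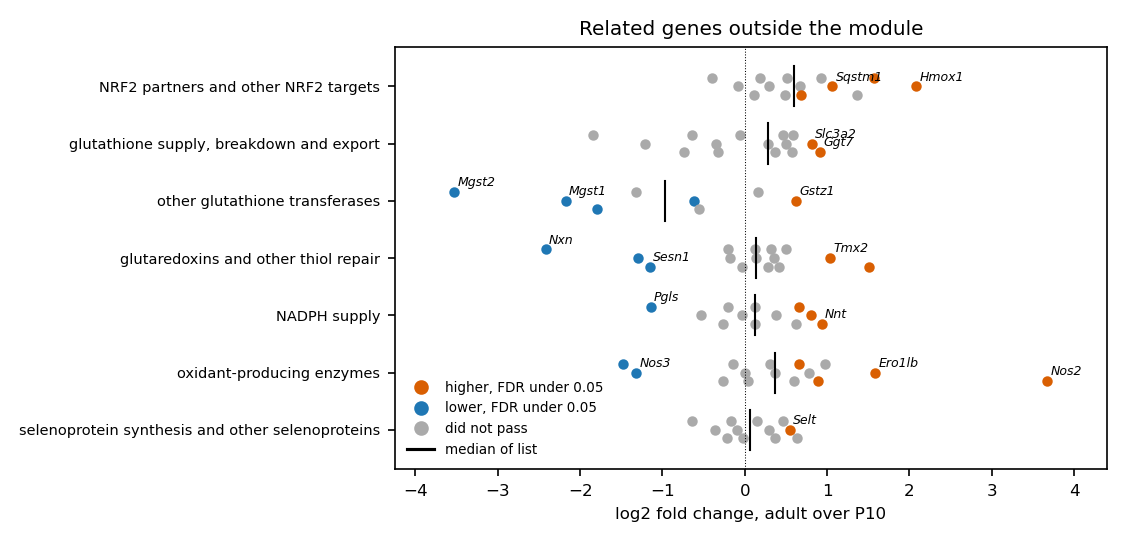
Log2 fold change of adult over P10 for tested genes of 7 related lists; orange and blue points passed the threshold, grey points did not, and black lines are list medians. Hmox1 lies furthest to the right in the NRF2 list, and Mgst2 and Mgst1 at the left of the other glutathione transferases.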

How the data were processed

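The deposited values were raw read counts per gene symbol, 1 file per library, which the authors obtained on the rn5 build by HTSeq after Bowtie2 and TopHat2 2.0.10, tools named in the submitters' processing notes. Libraries were single-end and kept no strand, per the labels' protocols, so overlapping antisense genes could not be told apart. Only unique alignments in a single gene were counted, per the counter rows, which stayed out of all totals. Reads shared by near-identical copies are therefore missing. Alignments that were not unique made up 23.4% to 27.7% of each P10 file and 15.1% to 17.8% of each adult file. The share left out was thus higher in every P10 library, and its effect on the members was not tested. A deposited table of the whole series was not used.

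Genes were kept by filterByExpr (minimum count 10), which left 10124, and tested with edgeR 4.0.16 (R 4.3.3) in a quasi-likelihood model with age group as the only term and trimmed mean of M values (TMM) factors. FDRs are Benjamini-Hochberg values over all tested genes. The SE was taken as the size of the log2 fold change over root F, and 95% intervals use the model's degrees of freedom. The p-values measure the spread between labelled replicates, which may be partly technical. Counting intervals cover counting error only, and a floor of 3 counts was 0.407 to 1.10 CPM. No transcript lengths were used, so levels are not compared between genes; a single start window per gene came from RefSeq, and those of Gpx4, Gpx8, Gsr, Gsta3, Gstm6l, Gsto2, Gstt1, Gstt2, Prdx6, Sod3, Txndc2, Txnip and Txnrd1 were not used here.

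The members and lists were chosen with earlier results of these data known. Members past the threshold and 18 fixed members were described by library. Of each related list, the 2 smallest p-values in its commoner direction and the 1 smallest in the other were named, plus Keap1, Hmox1, Slc7a11 and Gss; a further gene that this rule names is not reported here. Of 121 related genes 111 had a row. The alternatives tried were 3 other scalings (relative log expression, library totals alone, and TMM with hormone and acinar genes left out), 2 other filters (none, or at least 5 CPM in at least 3 libraries), DESeq2 1.42.0, a term for the replicate number as a block, and each library left out in turn. A block by the numbers in the names of the deposited tables was added after seeing the data.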

Additional observations from a re-analysis of the deposited data

How the results depend on the processing

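Of the 19 called members 11 kept their call and direction under all 13 alternatives, the added block aside: Cat, Nqo1, Sod1, Sod2 and Srxn1 higher, and Gpx2, Gpx3, Gpx7, Gpx8, Sod3 and Txnip lower. Scaling by library totals alone gave 5 members higher and 25 lower, 8 related genes higher and 28 lower, and 343 of all genes higher and 3612 lower; Txndc5 reversed to -0.14. With the replicate block 5 members were higher and 6 lower, 11 related genes were higher, and of all genes 679 were higher and 729 lower. That block used the numbers of the labels, of which 1 and 3 occur in both groups. P10 replicate 4 and adult replicate 2 thus had a term each, and the age difference rested on the replicates numbered 1 and 3. The deviations of same-numbered libraries correlated by -0.024 and -0.0049 over 10124 genes. The names of the deposited tables number both groups 1 to 3 instead. A replicate block by those numbers, added after seeing the data, gave 7 members higher and 9 lower, with the calls of Gstm7, Prdx6 and Txndc5 lost, and its pairs correlated by -0.024, -0.0054 and -0.051. Whether libraries with the same number share anything else is not stated, and these correlations cannot exclude it. Leaving out 1 library gave 7 to 10 members higher and 7 to 10 lower, with the call of 6 members lost at least once. The cause of these changes was not tested. Depth limits the members with few counts, Gpx8, Gstm2, Prdx4 and Sod3 in adults.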

Other observations

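Several members with wide differences between libraries of the same age are given here as values. Gstt3, a theta-class transferase that failed the filter on low counts, had 9, 74 and 47 counts in P10 replicates 1, 3 and 4 and 2, 1 and 0 in adults, 26.3-fold higher at P10 after normalisation (95% counting interval 8.81 to 129). Without the filter it was lower in adults (edgeR FDR = 0.000124), and P10 replicate 1 stood at 1.22 CPM beside 11.0 and 11.4 CPM. Gstk1, the mitochondrial and peroxisomal kappa-class transferase, was highest in P10 replicate 1, at 9.90 CPM beside 3.12 and 5.10 CPM. Prdx3 was lowest there, at 14.8 CPM beside 31.1 and 28.9 CPM. Gsta4, a transferase for products of lipid peroxidation, had 0.346 CPM in adult replicate 1 and 2.93 and 3.67 CPM in the other adult libraries. Gsta5 had 0, 1 and 2 counts at P10 and 0, 1 and 11 in adults, and Gsto2 30 counts at P10 and 25 in adults.

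Among the adult libraries, replicate 2 had the lowest level of Sod2, Srxn1 and Nqo1 and also of Hmox1, Sqstm1 and Nos2, genes chosen after their values were seen. Replicate 3 had the highest level of Sod1, Cat, Srxn1, Nqo1, Hmox1, Sqstm1 and Nos2 and the lowest of Txnip. Macrophage markers, of which 1 of 8 tested was lower and none higher, summed to 52.5 to 115 CPM at P10 and 41.8 to 89.6 CPM in adults, and overlapped. Acinar markers summed to 3363, 4783 and 3309 CPM in P10 replicates 1, 3 and 4 and to 1223, 1371 and 4840 CPM in adult replicates 1, 2 and 3, so that adult replicate 3, the library with the high values above, stood apart from the other adults. Their part in the spread between libraries was not tested.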
